A study of Mus musculus with 11 samples.

Results

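The genes described here are 10 members of the VEGF and angiopoietin systems, Vegfa, Vegfb, Vegfc, Pgf, Kdr, Flt1, Angpt1, Angpt2, Tek and Tie1. They were chosen by gene symbol in a table of 14602 genes, and all 10 were in it. The table holds reads counted per gene in 11 RNA libraries from RPE/choroid, the layer of retinal pigment epithelium (RPE) with the vascular choroid beneath it. All mice were C57BL/6J and 12 months old when tissue was taken. The 5 laser treated libraries came from mice in which 1 eye had been treated at 9 months of age with the 2RT nanosecond laser, which delivers very short pulses. The study set the energy under the dose that drew a retinal response. In its younger C57BL/6J mice the spots could still be seen in the fundus, and RPE was ablated there. The 6 control libraries came from untreated (naïve) mice of the same age. The laser spots covered a part of the central eye only, whereas the RNA came from the RPE/choroid as a whole, and it was pre-amplified with a SmartSeq kit before the libraries were made.

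VEGF ligands bind receptor tyrosine kinases on endothelial cells and drive the growth, permeability and survival of vessels. The RPE is a main source of VEGFA in the back of the eye, and the fenestrated choriocapillaris beneath it depends on that supply. The angiopoietins act on a second receptor system, Tek (also called Tie2) with its partner Tie1: ANGPT1 activates Tek and stabilizes vessels, and ANGPT2 often opposes it and is released when vessels remodel. In bulk tissue, fewer cells of a type and less RNA per cell cannot be told apart.

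Total counts ranged from 25700881 to 38755994 per library. The labelled tissue was borne out for Rgr and Rpe65, 2 RPE markers, which ranged from 44871 to 80080.3 and from 7718 to 15720.1 CPM (read counts scaled to library size) across the libraries. Best1, another RPE marker, did not exceed 3.08 CPM. Neural retina was not absent: 13 of its markers summed to 2939 to 9952 CPM in the controls and to 2028 to 9918 CPM after laser, and the 5 blood markers to 52.1 to 326.5 CPM and to 40.58 to 159.8 CPM, with Hbb-b1 lower at an unadjusted p of 0.0224 (adjusted p = 0.241, edgeR). Gfap, a glial gene of the neural retina list, was at 267, 9.19, 201, 282 and 229 CPM after laser and from 31.6 to 113 CPM in the controls (log2 fold change 1.37 ± 0.61, unadjusted p = 0.044, adjusted p = 0.301, edgeR). Laser treated replicate 2 was thus below every control in Gfap and the other 4 were above every control. Gfap did not stand for its list. Of the 13 neural retina markers, 2 were higher after laser, Gfap among them, and 11 were lower. Their median log2 fold change was -0.41. The part of these cells in the results below was not tested. A label at the head of each deposited transcript file reads R1 for 5 libraries (3 control, 2 laser treated) and R2 for 6 (3 of each group). The sources used here do not say what it stands for, and results are also given for R1 and R2 apart. The labels give the numbers of control and laser treated samples without tying each library to an animal, and p-values measure the spread between these libraries.

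The RNA for one member, Flt1, can encode a soluble or a membrane-bound receptor, and the sequences at the point where its transcripts part are shown because coverage of both forms is compared further on. FLT1 binds VEGFA tightly but signals weakly; the soluble form lacks the membrane anchor and the kinase and acts as a decoy. Flt1 lies on the minus strand at chr5:147561604-147726011 (GRCm38). The full-length transcript Flt1-202 has 30 exons in the GENCODE M21 annotation. The soluble transcript Flt1-203 has 13 exons, because its exon 13 runs on into the next intron. Both lines start with the last 30 bases of the shared exon 13 in lower case, which ends at position 147639225. The next 95 bases, in capitals, belong to 1 form only, and those of the soluble form end with its stop codon.
Flt1 soluble form: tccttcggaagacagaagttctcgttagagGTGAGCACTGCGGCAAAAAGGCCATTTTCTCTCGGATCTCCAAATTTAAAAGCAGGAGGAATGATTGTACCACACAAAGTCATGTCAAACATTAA
Flt1 full-length form: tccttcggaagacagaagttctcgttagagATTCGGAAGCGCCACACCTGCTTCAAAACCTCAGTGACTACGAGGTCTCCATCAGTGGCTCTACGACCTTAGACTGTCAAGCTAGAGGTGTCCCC

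Vegfb and Vegfa were the most abundant members and no other member exceeded 10.7 RPKM in any library (normalized CPM per kilobase of annotated exon, made here so that levels of different genes can be compared). Vegfb stood at 65.4 ± 10.7 RPKM (SD, n = 11) and Vegfa at 59.0 ± 14.3 RPKM, and these neighbours did not differ beyond their spread (mean log2 difference 0.17, higher for Vegfb in 8 of 11 libraries; exact sign-flip permutation test, adjusted p = 0.127 over 9 neighbour pairs). Vegfc followed at 6.8 ± 2.73 RPKM, lower than Vegfa in all 11 libraries by 3.2 on the log2 scale (adjusted p = 0.00879, exact test). Pgf stood at 4.3 ± 1.24 RPKM, lower than Vegfc in 10 of 11 libraries (log2 difference 0.6, adjusted p = 0.0132, exact test). From Pgf downwards no neighbouring pair differed beyond its spread, with adjusted p from 0.127 to 0.411 in the exact test. The order from there was Tek at 2.98, Tie1 at 2.08, Kdr at 1.61, Angpt1 at 1.01, Flt1 at 0.984 and Angpt2 at 0.904 RPKM. Each value is divided by the exons of all annotated transcripts of the gene. For Flt1 these are 13504 bases, which include the tail of the soluble form.

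No member passed an adjusted p of 0.05 in the comparison of laser treated with naïve control libraries, in which 0 of 14602 genes did (edgeR quasi-likelihood test, Benjamini-Hochberg adjustment). DESeq2 called 547 genes, neither Vegfa nor Vegfb among them, and gave no adjusted p for the other 8 members. Vegfa alone was past an unadjusted p of 0.05. That is 1 of 10 members, or 10.0%, beside a background of 15.9% of all genes, 2325 of 14602. Of the members 8 had a fold change above 1 and 2 below, and their median log2 fold change was 0.21, beside -0.02 over all genes. The CPM of the groups overlapped for all 10 members, beside a background of 2.26% of genes whose groups did not overlap. The smallest adjusted p among the members was 0.282.

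**Figure D1:**
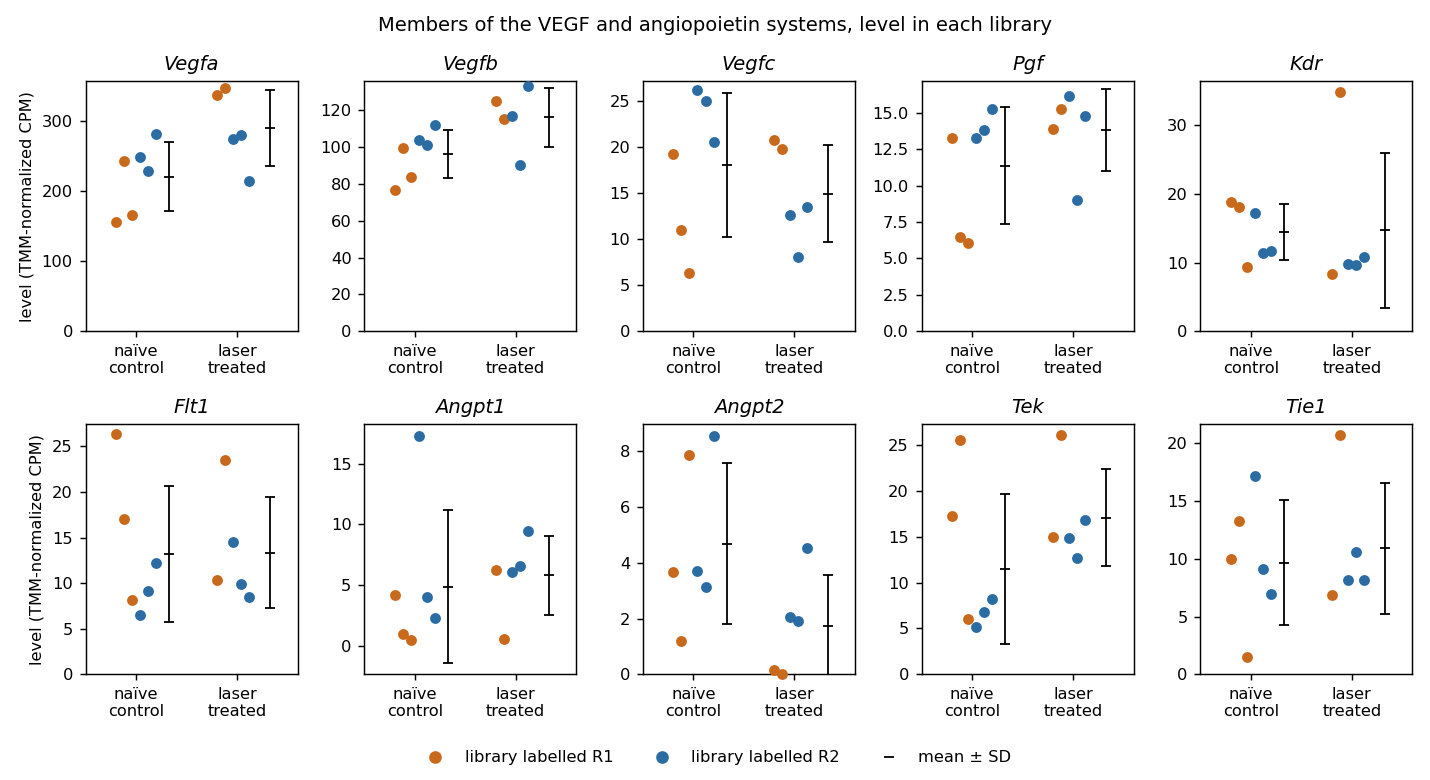
Level of each member in each library, in TMM-normalized CPM, by group, with points coloured by the label R1 or R2 and the mean ± SD beside them. The 2 highest Vegfa values, 338 and 348 CPM, and the 2 lowest Angpt2 values belong to the laser treated libraries labelled R1, and the laser treated replicate 2 stands alone in Kdr at 34.9 CPM.

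Vegfa, the ligand that drives most vascular permeability and growth (chr17:46016993-46032369, GRCm38, minus strand), was measured at 338, 348, 275, 279.8 and 214 CPM in the 5 laser treated libraries. The controls ran from 156 to 282 CPM with a median of 236. Thus 2 laser treated libraries lay above every control, and the lowest lay below the control median. The means were 220.8 ± 49.6 CPM (SD, n = 6) in the controls and 291.2 ± 54.2 CPM (SD, n = 5) after laser, a log2 fold change of 0.40 ± 0.17 (SE; 95% interval 0.03 to 0.77, unadjusted p = 0.0377, adjusted p = 0.282, edgeR). The estimates differed by label. Within R1 the log2 fold change was 0.87 ± 0.21 (adjusted p = 0.113, edgeR), with 338 and 348 CPM after laser against 156, 243 and 166 CPM in the controls. Within R2 it was 0.02 ± 0.19 (adjusted p = 0.997, edgeR), with 275, 279.8 and 214 CPM against 249, 229 and 282 CPM. The effects in the 2 labels differed by 0.85 ± 0.28 (unadjusted p = 0.0109, adjusted p = 0.392, edgeR). After removal of a trend of expression on GC content in each library, the log2 fold change of Vegfa was 0.38 and its unadjusted p 0.0862. With 1 library left out the log2 fold change ran from 0.31 to 0.49, and the unadjusted p was over 0.05 without control replicate 1, 3 or 5 or laser treated replicate 1, 2 or 4.

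Vegfb, which binds Flt1 but not Kdr and is linked to the metabolism and survival of vascular cells, lay on chr19:6982473-6987651 (minus strand). It was measured at 125, 115, 117, 90.4 and 133 CPM after laser and from 76.9 to 112 CPM in the controls, with a median of 100.1 CPM. So 4 of the 5 laser treated libraries were above every control and 1 was below the control median. Vegfb had a log2 fold change of 0.27 ± 0.13 (95% interval -0.01 to 0.55, adjusted p = 0.339, edgeR). Vegfb had the highest GC content of the members, 62.6% of the bases of its longest annotated transcript, and with the GC trend removed its log2 fold change was 0.04.

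Vegfc, the main ligand of the lymphatic receptor Flt4 (chr8:54077606-54187096, plus strand), gave estimates of opposite sign in the 2 labels. It was measured at 20.8 and 19.8 CPM in the laser treated libraries labelled R1, where the controls had 19.3, 11 and 6.36 CPM. In the laser treated libraries labelled R2 it was 12.6, 8.11 and 13.5 CPM, all below the 26.2, 25 and 20.6 CPM of the R2 controls. Over all libraries the log2 fold change of Vegfc was -0.27 ± 0.36 (95% interval -1.04 to 0.49, adjusted p = 0.786, edgeR). Within R1 it was 0.73 ± 0.41 and within R2 -1.07 ± 0.38. The difference between labels was 1.80 ± 0.56 (unadjusted p = 0.00759, adjusted p = 0.371, edgeR).

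Pgf, placental growth factor, binds Flt1 but not Kdr and is tied to vessel growth in disease (chr12:85166635-85177790, minus strand). It ranged from 9.00 to 16.2 CPM after laser and from 6.07 to 15.3 CPM in the controls. The 2 controls lowest in Pgf, at 6.49 and 6.07 CPM, were labelled R1. Pgf had a log2 fold change of 0.28 ± 0.29 (95% interval -0.34 to 0.90, adjusted p = 0.707, edgeR).

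**Figure D2:**
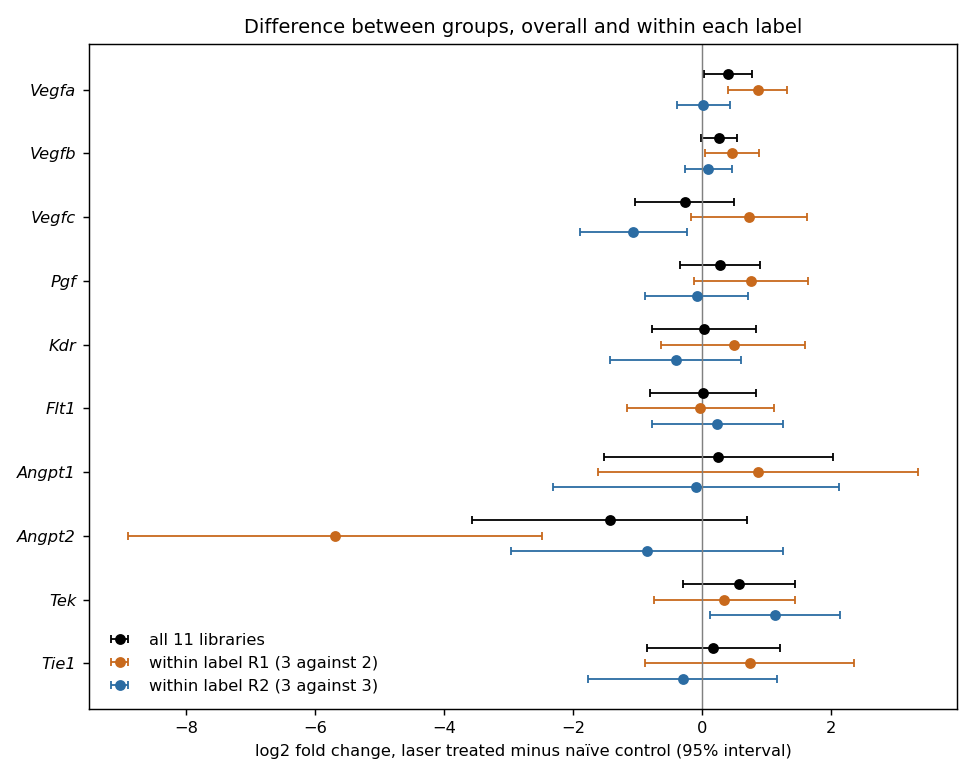
Log2 fold change of laser treated minus naïve control libraries for each member, with 95% intervals, over all 11 libraries and within each label. Over all libraries the interval leaves out 0 for Vegfa only (0.03 to 0.77), and within R1 the estimate for Angpt2 is -5.69.

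Kdr and Flt1, the receptors of VEGFA, gave estimates near 0 with wide intervals. Kdr carries most of the growth and permeability signal of VEGFA in endothelial cells (chr5:75932827-75978458, minus strand). After laser it was measured at 8.39, 34.9, 9.76, 9.66 and 10.8 CPM, and in the controls from 9.37 to 18.9 CPM with a median of 14.4 CPM. The 34.9 CPM of laser treated replicate 2 was the highest of all libraries, and the other 4 laser treated libraries were below the control median. The log2 fold change of Kdr was 0.03 ± 0.38 (95% interval -0.78 to 0.84, adjusted p = 0.983, edgeR), and without that library it was -0.58 (unadjusted p = 0.046, adjusted p = 0.429, edgeR). The interval runs from 0.58-fold to 1.79-fold, so differences within that range are not excluded.

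Flt1 was measured at 10.3, 23.5, 14.5, 9.94 and 8.51 CPM after laser and from 6.47 to 26.4 CPM in the controls, with a median of 10.7 CPM. The highest values of both groups, 26.4 and 23.5 CPM, came from libraries labelled R1. Flt1 had a log2 fold change of 0.01 ± 0.38 (95% interval -0.81 to 0.84, adjusted p = 0.992, edgeR), and it was -0.29 without laser treated replicate 2.

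The 2 forms of Flt1 were compared in the transcripts that the authors assembled with StringTie, after the files had been seen. Each assembled transcript in these files has 1 exon, so the forms were read from coverage of the region that belongs to each: the first 1000 bases after exon 13 for the soluble form (chr5:147638225-147639224) and the last exon, 2803 bases, for the full-length form (chr5:147561604-147564406). The tail of the soluble form had a coverage of 29.7, 18.7, 17.2, 15.3, 18.6 and 14.2 reads per base in control replicates 1 to 6. In the same libraries the last exon of the full-length form had 16.6, 12.6, 7.71, 2.84, 8.6 and 8.22 reads per base. In these first 1000 bases the tail was higher in 6 of 6 controls, from 1.49-fold to 5.38-fold. After laser the tail had 10.9, 30.1, 6.69, 12.8 and 5.56 reads per base and the last exon 6.66, 8.24, 8.8, 4.48 and 9.17. Here the tail was higher in 3 of 5 libraries, and the 2 exceptions, replicates 3 and 5, were labelled R2.

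Which form had more coverage depended on the window, which was chosen after the files had been seen and does not cover all of the tail that was assembled. Over the first 1000 bases the tail of Flt1 was 1.86-fold the last exon on average (mean log2 ratio 0.90 ± 0.91, SD, n = 11) and higher in 9 of 11 libraries. Over the whole annotated tail it was 0.709-fold the last exon (mean log2 ratio -0.50 ± 0.68, SD, n = 11) and higher in 3 of 11 libraries, 1 of 6 controls (replicate 4) and 2 of 5 after laser (replicates 2 and 4). With the first 1000 bases the log2 ratio was 1.15 ± 0.66 in the controls and 0.60 ± 1.1 after laser, a difference of -0.56 that did not exceed the spread (exact two-sided permutation test over 462 splits, p = 0.338). The difference was -0.87 without laser treated replicate 2, -0.30 without control replicate 4, -0.31 without laser treated replicate 3 and -0.23 without laser treated replicate 5, and it was -0.21 over the whole tail. The tail is intronic sequence of the full-length gene, so coverage there was set against the other introns. The highest assembled transcript elsewhere in the Flt1 introns had a coverage from 4.09 to 9.61 reads per base, below the tail in 10 of 11 libraries, with laser treated replicate 3 as the exception. The assembled transcripts that overlapped the first 1000 bases reached 1124 to 1189 bases after exon 13 in 10 of 11 libraries. In laser treated replicate 5 they reached 1985 bases. The annotated tail is 4066 bases long, and other assembled transcripts lay further along it. Assembled transcripts covered from 27.8% of the whole tail in control replicate 4 to 74.8% in control replicate 1, so these ends are not the end of the tail. In all 11 libraries an assembled transcript of the tail also held bases of exon 13, which both forms share, so its coverage is not of the soluble form alone.

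Angpt2 was lowest in the laser treated libraries labelled R1. The gene, whose product is a context-dependent antagonist of Tek stored in endothelial cells, lies at chr8:18690263-18741562 (minus strand). Laser treated replicates 1 to 5 had 5, 0, 72, 67 and 150 counts, or 0.162, 0, 2.05, 1.92 and 4.51 CPM. The controls had 130, 29, 243, 123, 116 and 282 counts, from 1.18 to 8.52 CPM. Thus 2 of 5 laser treated libraries were below every control and the others were within the control range. A count of 0 in a library of this depth allows up to 3 counts. The log2 fold change of Angpt2 was -1.43 ± 0.99 (95% interval -3.57 to 0.70, unadjusted p = 0.17, adjusted p = 0.53, edgeR).

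Within R1 the fitted log2 fold change of Angpt2 was -5.69 ± 1.5 (adjusted p = 0.12, edgeR), a value that rests on 5 counts in 2 libraries. Within R2 it was -0.86 ± 0.96 (adjusted p = 0.937, edgeR). The effects in the labels differed by -4.83 ± 1.6 (unadjusted p = 0.0121, adjusted p = 0.398, edgeR). Of the 10 members, 3 differed between the labels at an unadjusted p of 0.05, Vegfa, Vegfc and Angpt2, beside a background of 9.5% of all genes, and none at an adjusted p of 0.05.

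Angpt1, the activating ligand of Tek that mural cells make in many tissues (chr15:42424723-42676977, minus strand), varied most among the members beside its mean, with a coefficient of variation of 93.4% over the 11 libraries. It was measured at 6.25, 0.544, 6.08, 6.59 and 9.44 CPM after laser. The controls had 4.16, 0.974, 0.42, 17.3, 3.98 and 2.24 CPM, so replicate 4 was far above the others. The log2 fold change was 0.25 ± 0.82 (95% interval -1.52 to 2.03, adjusted p = 0.924, edgeR), 1.29 without control replicate 4 and 0.00 without control replicate 3. A predicted gene on the opposite strand, Gm17473, shares 14.2% of the exon bases of Angpt1, and without the strand of the reads these genes cannot be told apart there.

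Tek, the angiopoietin receptor on endothelial cells (chr4:94739289-94874976, plus strand), was measured at 15, 26.1, 14.8, 12.7 and 16.8 CPM after laser. The controls labelled R1 had 17.2, 25.5 and 6.04 CPM and those labelled R2 had 5.17, 6.77 and 8.19 CPM. All 3 laser treated libraries of R2 were above all 3 controls of R2, and in R1 the groups overlapped. The estimate for Tek was 0.58 ± 0.41 over all libraries (95% interval -0.30 to 1.45, adjusted p = 0.543, edgeR), 0.34 ± 0.50 within R1 and 1.14 ± 0.46 within R2 (unadjusted p = 0.0296, adjusted p = 0.738, edgeR). The difference between the labels was -0.80 ± 0.68 (adjusted p = 0.776, edgeR). With the label as a covariate the log2 fold change of Tek was 0.79 (unadjusted p = 0.0426, adjusted p = 0.327, edgeR). With 1 library left out it ran from 0.37, without laser treated replicate 2, to 0.98, without control replicate 2 (unadjusted p = 0.0157, adjusted p = 0.28, edgeR). It was 0.43 without control replicate 3 (unadjusted p = 0.322, adjusted p = 0.754, edgeR).

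Tie1, the orphan partner that modulates Tek (chr4:118471191-118490061, minus strand), was measured at 6.86, 20.7, 8.19, 10.6 and 8.2 CPM after laser and from 1.49 to 17.2 CPM in the controls, with a median of 9.59 CPM. Its log2 fold change was 0.17 ± 0.48 (95% interval -0.86 to 1.21, adjusted p = 0.911, edgeR), and it was -0.19 without laser treated replicate 2. Laser treated replicate 2 was thus the highest library in Kdr, Tek and Tie1 and the only library with no count of Angpt2. Within R1, 3 of 10 members were past an unadjusted p of 0.05 (Vegfa, Vegfb and Angpt2; background 17.8%), and within R2, 2 of 10 (Vegfc and Tek; background 6.57%).

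Ratios between paired members do not depend on how the libraries were scaled, and 4 were compared (exact permutation test, two-sided, 462 splits, smallest possible p 0.00433). The ratio of Angpt2 to Angpt1, the opposing ligands of Tek, was below 1 in 5 of 5 laser treated libraries, with log2 ratios of counts of -5.14, -5.36, -1.56, -1.77 and -1.06. The controls were at -0.18, 0.27, 4.17, -2.22, -0.34 and 1.92, so a ratio below 1 was found in controls too. The values of -5.14 and -5.36, both labelled R1, rest on 5 and 0 counts of Angpt2. The size of the latter depends on the 0.5 added to the counts. The mean log2 ratio was 0.60 ± 2.2 (SD, n = 6) in the controls and -2.98 ± 2.1 (SD, n = 5) after laser, a difference of -3.58 (exact p = 0.0173, adjusted p = 0.0693 over the 4 ratios). It thus missed the threshold after adjustment and the groups overlapped. With 1 library left out the adjusted p in the exact test was from 0.114 to 0.152 in 10 of 11 cases, and 0.0317 without control replicate 4, in which Angpt1 was highest (difference -4.15). On the TPM scale of the assembled transcripts the difference was -2.67 (exact p = 0.195). Within R1 the difference was -6.67 (exact p = 0.2) and within R2 -1.25 (exact p = 0.4), where the smallest possible p is 0.2 and 0.1.

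The other 3 ratios did not differ between the groups beyond their spread, with an adjusted p of 0.541 each in the exact test. The mean log2 ratio of Kdr to Flt1 was 0.24 ± 0.63 in the controls and 0.00 ± 0.46 after laser. That of Tek to Tie1 was 0.30 ± 1.3 and 0.72 ± 0.40, with 1 control, replicate 4, at -1.73. That of Vegfa to its receptor and decoy Flt1 was 4.20 ± 0.92 and 4.53 ± 0.46.

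**Figure D3:**
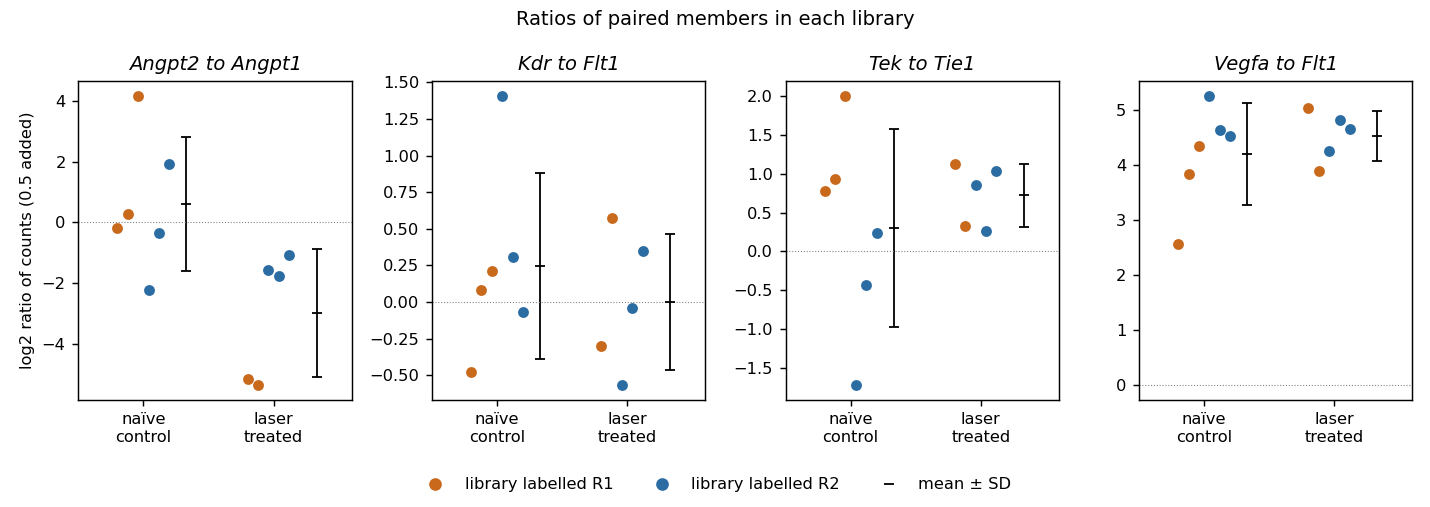
Log2 ratio of counts (0.5 added) for 4 pairs of members in each library, with points coloured by label and the mean ± SD beside each group. For Angpt2 to Angpt1 the 5 laser treated libraries lie from -5.36 to -1.06 and the controls from -2.22 to 4.17.

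The levels of the receptors were set beside those of 18 other endothelial genes, such as Pecam1, Cdh5 and Plvap, none of them a member. The endothelial score, the mean z-score of log2 CPM of these genes, ranged from -1.16 in control replicate 3 to 1.26 in laser treated replicate 2. Kdr rose with it over the 11 libraries (Pearson r = 0.82, adjusted permutation p = 0.0145 over 10 members; Spearman rho = 0.83, adjusted permutation p = 0.0274). For Tie1 r was 0.75 (adjusted permutation p = 0.032; rho = 0.62, adjusted permutation p = 0.134), and for Tek it was 0.72 (adjusted permutation p = 0.048; rho = 0.74, adjusted permutation p = 0.0625). For Flt1 r was 0.68 (adjusted permutation p = 0.0568; rho = 0.61, adjusted permutation p = 0.134). Without the 2 libraries with the most extreme scores, named above, r was lower, at 0.70 for Kdr, 0.51 for Tek, 0.50 for Flt1 and 0.38 for Tie1. No adjusted permutation p was then under 0.05. Fewer libraries also raise p, and whether the relations rest on those 2 was not tested. Leaving out laser treated replicate 2 alone took r for Kdr to 0.71, past the threshold no longer, and the calls for Tie1 and Tek were also lost without 4 and 8 single libraries. Within the 6 libraries labelled R2, r was 0.22, 0.34, -0.27 and 0.14 for Kdr, Tek, Flt1 and Tie1. The 5 libraries labelled R1 were too few for a correlation.

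No relation of the ligands with the endothelial score passed the threshold. For Vegfa r was 0.15, for Vegfb 0.20, for Vegfc 0.36, for Pgf 0.37, for Angpt1 -0.03 and for Angpt2 -0.49, with adjusted permutation p from 0.254 to 0.935 (rho from -0.28 to 0.35, adjusted permutation p from 0.596 to 0.968). The 18 endothelial genes themselves summed to 317 to 611.4 CPM in the controls and to 365.1 to 945 CPM after laser. Of these genes 15 had a fold change above 1 and 3 below, none past an unadjusted p of 0.05, with a median log2 fold change of 0.28. The 2 with the smallest p were Eng, a TGF-beta co-receptor, at 0.63 ± 0.35 (adjusted p = 0.403, edgeR), and Plvap, the diaphragm protein of fenestrae, at 0.53 ± 0.31 (adjusted p = 0.442, edgeR). Among 11 mural cell genes none was past an unadjusted p of 0.05 and the median was 0.25. The smallest p there belonged to Abcc9, a potassium channel subunit of pericytes, at -2.30 ± 1.1 (adjusted p = 0.315, edgeR), and to Acta2, smooth muscle actin, at 0.25 ± 0.15 (adjusted p = 0.437, edgeR). The 3 lymphatic markers had a median of -0.02, with Prox1 at -1.37 ± 1.5, Lyve1 at -0.02 ± 0.84 and Pdpn at -0.01 ± 0.12. Their control means were 2.217, 1.215 and 388.5 CPM, so Prox1 and Lyve1 were low and Pdpn was at a level unlike theirs.

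**Figure D4:**
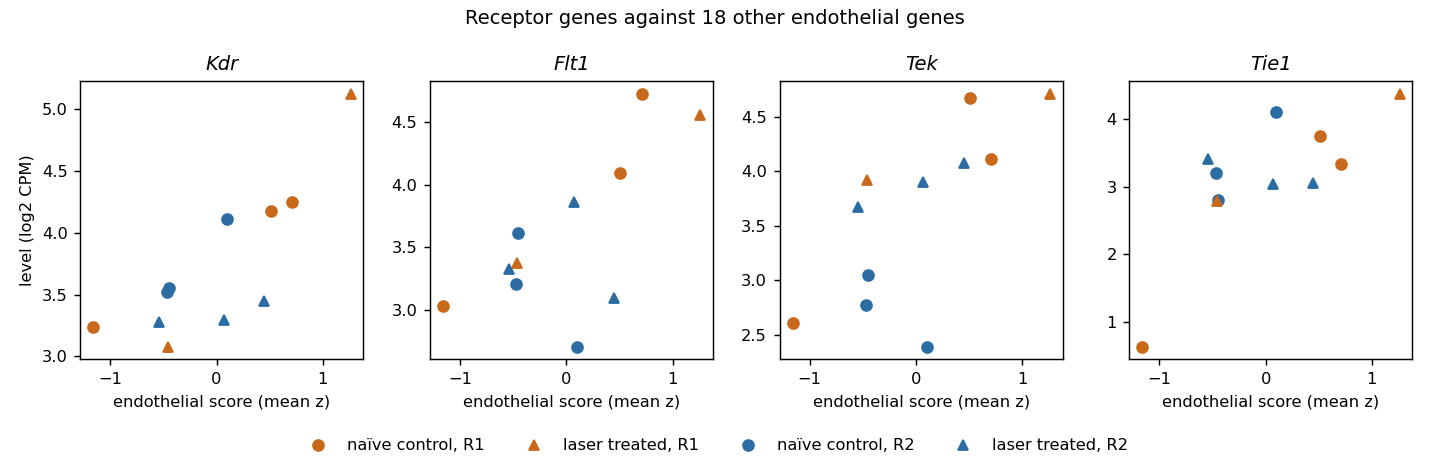
Level of the 4 receptor genes in log2 CPM against the endothelial score, the mean z-score of 18 other endothelial genes, with 1 point per library, shaped by group and coloured by label. The highest score, 1.26, is that of a laser treated library and the lowest, -1.16, that of a control, and r for Kdr is 0.82 with them and 0.70 without them.

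Of the other genes of these pathways, 56 in 7 lists were measured. Past an unadjusted p of 0.05, 9 were higher after laser and 5 lower, beside 8.24% and 7.68% of all genes, and none passed an adjusted p of 0.05. Their median log2 fold change was 0.03. With the GC trend removed, 3 were higher and 1 was lower, beside 7.2% of all genes in both directions together in that fit. The genes named are the 2 with the smallest p of each list.

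In the hypoxia list 2 of 10 genes were higher and 2 lower past an unadjusted p of 0.05, with a median of 0.28. Slc2a1, the glucose transporter GLUT1 of the RPE and a target of hypoxia-inducible factors, was at 991, 1262, 1156, 1060.3 and 944 CPM after laser and from 500.3 to 846 CPM in the controls. Its groups did not overlap (log2 fold change 0.58 ± 0.14, adjusted p = 0.172, edgeR). Vldlr, a lipoprotein receptor, was at -0.36 ± 0.13 (adjusted p = 0.222, edgeR). Among 8 genes of oxygen sensing the median was -0.05, with 1 gene past an unadjusted p of 0.05 in each direction. Egln2, a prolyl hydroxylase that marks HIF subunits for degradation, was at 68.27 ± 14.9 CPM in the controls and 102.2 ± 12.4 CPM after laser (0.58 ± 0.16, adjusted p = 0.174, edgeR). Hif1a, the HIF-1 alpha subunit, was at 275 ± 32.5 and 222 ± 36.1 CPM (-0.31 ± 0.13, adjusted p = 0.265, edgeR).

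Downstream of the receptors, 2 of 15 adaptors and effectors were higher and 1 was lower past an unadjusted p of 0.05, with a median of 0.17. Pik3ca, a catalytic subunit of PI3 kinase, was at -0.66 ± 0.23 (adjusted p = 0.208, edgeR). Akt1, the kinase that PI3 kinase activates, was at 0.43 ± 0.17 (adjusted p = 0.249, edgeR). Among 11 genes of endothelial Notch signalling and tip cells, 2 were higher and 1 was lower, with a median of 0.04. Notch1, a receptor that restrains sprouting, was at 5.629 ± 1.62 CPM in the controls and 10.13 ± 2.81 CPM after laser (0.85 ± 0.30, adjusted p = 0.214, edgeR). Jag1, a Notch ligand, was at -0.58 ± 0.24 (adjusted p = 0.258, edgeR).

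Among 7 extracellular inhibitors of angiogenesis, 2 were higher and none lower past an unadjusted p of 0.05, with a median of 0.13. Col18a1, the collagen from which endostatin is cut, was at 0.55 ± 0.17 (adjusted p = 0.177, edgeR). Its values after laser were 175, 146, 183, 229 and 191 CPM, and the controls ran from 80.8 to 154 CPM. Sparc, a matrix glycoprotein, was at 0.59 ± 0.18 (adjusted p = 0.179, edgeR), with laser treated replicate 2 at 223 CPM and the other 4 from 339.6 to 479 CPM. The list of other VEGF ligands and receptors had 4 genes, none past an unadjusted p of 0.05. Figf, the ligand VEGFD, was at -0.93 ± 0.94 (adjusted p = 0.704, edgeR) and Nrp2, a co-receptor, at 0.23 ± 0.41 (adjusted p = 0.858, edgeR). Ptprb, the phosphatase that removes phosphate from Tek, was at -0.25 ± 0.45 (adjusted p = 0.86, edgeR).

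For each member the 2 genes most like it were those with the highest Pearson r of log2 CPM over the 11 libraries, among genes with a mean of at least 50 counts. These r are descriptions, over libraries that share their depth and tissue mix. For Vegfa they were Rufy1 (0.98) and Acsl6 (0.95), for Vegfb Spint2 and Abhd14b (0.94 each), for Vegfc Kdsr (0.94) and Fam76a (0.88), and for Pgf Myo18a (0.97) and Pcdhac2 (0.95). For the receptors they were Tbxa2r (0.86) and Mettl16 (0.85) with Kdr, Fgd1 (0.94) and Zfp346 (0.84) with Flt1, Fkbpl (0.86) and Gm6682 (0.85) with Tek, and Icam1 and Col1a1 (0.93 each) with Tie1. Angpt1 was most like Dnmt3b and Tagln (0.91 each), and Angpt2 most like Lrrc39 and Slc7a6 (0.93 each). Icam1 is an adhesion molecule and is not in the endothelial list used here. Col1a1 is a fibroblast marker and Tagln a smooth muscle gene. All these genes were picked as the highest of many over 11 libraries, and their r were not tested against chance.

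Among the 45 pairs of members themselves, Vegfc with Pgf and Flt1 with Tek had the highest r, 0.75 each. Vegfa with Angpt2 had the lowest, -0.69. The r of Kdr with Flt1 was 0.62 and with Tie1 0.66, and that of Tek with Tie1 was 0.43.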

How the data were processed

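RNA sequencing of 11 RPE/choroid libraries was used, 6 naïve control and 5 laser treated. The submitters' processing notes name bcl2fastq 2.18.0.12, Trim Galore, STAR 2.5.3a, featureCounts 1.5.3, StringTie 1.3.3 and edgeR 3.22.3, with the builds mm10 and GRCm38, and the annotation and strand setting are not given in the sources used here. The authors deposited raw counts per gene, not normalized, and columns of their own fold changes, p-values and FDR, none of which was used. The other values, coverage, FPKM and TPM per assembled transcript, were deposited by the authors from StringTie, 1 file per library. Columns of no sample that were used number 0.

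Members and lists were chosen with earlier results of these data known. A marker of the neural retina list is not reported here. GENCODE M21 (GRCm38) gave positions, exon length and GC content for 97.7% of the genes. Counts were fitted in edgeR 4.0.16 (R 4.3.3) with TMM, filterByExpr, which removed no gene, and a robust quasi-likelihood fit over all 14602 genes, with Benjamini-Hochberg adjustment at 0.05; the common biological coefficient of variation was 0.58. Total counts of 25700881 to 38755994 per library set the precision, which the standard errors carry. SmartSeq reads have no molecular identifiers, so a limit from a count of 0 covers counting error only. Ratios used counts with 0.5 added. Correlations used log2 CPM (prior count 2) and 100000 resamples. Exact tests are two-sided. The genes named were the 10 members, the 2 genes of smallest p in each pathway, endothelial and mural list, and the 2 genes most like each member. Alternatives were DESeq2 1.42.0, upper quartile normalization, no filter, 10 counts in every sample, no robust estimation, voom with quality weights (limma 3.58.1), limma-trend on log2-transformed TPM (pseudocount 1 or 0.1), each library left out, the replicate number as a block, a loess GC trend (span 0.3) removed, and the label as a covariate. The main edgeR fit, DESeq2, voom, limma-trend, the contrast between labels and the estimate of the GC trend were tested on simulated data. The other alternatives were not. Tables were made with Python 3.11.15, pandas 2.3.3, numpy 2.4.6, scipy 1.17.1 and matplotlib 3.10.9.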

Additional observations from a re-analysis of the deposited data

Results flagged for a closer look

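In 4 of the 32 groups of values tested, 1 library stood far from the others by Dixon's criterion, where chance flags about 1 in 20 groups. Kdr was at 34.9 CPM in laser treated replicate 2 and from 8.39 to 10.8 CPM in the other laser treated libraries. Tie1 was at 20.7 CPM in the same library and from 6.86 to 10.6 CPM in the others. Angpt1 was at 17.3 CPM in control replicate 4 and from 0.42 to 4.16 CPM in the other controls. The log2 ratio of the first 1000 bases of the soluble tail of Flt1 to the last exon was 2.43 in control replicate 4 and from 0.58 to 1.15 in the other controls.

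For 3 members the laser effect in R1 minus that in R2 was past an unadjusted p of 0.05 in edgeR. It was 0.85 for Vegfa (adjusted p = 0.392), 1.80 for Vegfc (adjusted p = 0.371) and -4.83 for Angpt2 (adjusted p = 0.398), and the cause of the difference between the labels was not tested.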

How the results depend on the processing

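Fitting without a filter changed nothing by construction, since the filter removed no gene. Of the 585 other recomputed values, 477 kept their direction and their side of the threshold or stayed within 1.5 times a count, and 50 changed sign; no member passed an adjusted p of 0.05 under any alternative that gave it one, and DESeq2 gave one for 2 of the 10 members. Where the cause of a change is not stated, it was not tested. Leaving out 1 library gave 0 to 4 genes at an adjusted p under 0.05 (4 without laser treated replicate 2) and 1685 to 2771 at an unadjusted p, 0 to 2 members at an unadjusted p (0 without control replicates 1, 3 or 5 or laser treated replicate 1), and 5 to 9 higher and 2 to 6 lower pathway genes. Angpt2 was not tested at 10 counts in every sample, since it has fewer. The standard errors of the members' log2 fold changes ran from 0.13 (Vegfb) to 0.99 (Angpt2).

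At an adjusted p under 0.05, DESeq2 called 547 genes, a minimum of 10 counts 2, voom 1, and log2 TPM 2 with either pseudocount. At an unadjusted p, removing the GC trend left 1027 genes (7.20%), 0 members, and 3 higher and 1 lower pathway genes. Within R2 these were 960 genes (6.57%), 2 members and 1 lower pathway gene. Members at an unadjusted p were 4 of 10 with voom (17.8% of all genes), 3 with log2 TPM (14.7% and 14.2% of all genes with pseudocounts 1 and 0.1), 2 with the label as a covariate (14.4%) and 3 within R1 (17.8%). Log2 TPM gave 2 lower pathway genes.

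The log2 fold change of Kdr turned to -0.19 with voom, -0.50 and -0.56 with log2 TPM (pseudocounts 1 and 0.1), -0.01 with the label as a covariate and -0.41 within R2, and that of Flt1 to -0.08 with log2 TPM and -0.03 within R1. Tie1 turned to -0.04 with the GC trend removed and -0.30 within R2, Vegfc to 0.73 within R1, and Pgf to -0.08 and Angpt1 to -0.09 within R2. Without 1 library at a time, Kdr ran from -0.58 to 0.17, Flt1 from -0.29 to 0.33, Angpt1 from 0.00 to 1.29 and Tie1 from -0.19 to 0.40.

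Same-numbered libraries shared a deviation from their group means with r of -0.01, 0.115, 0.28, -0.01 and -0.01, and 2 of the 5 laser treated libraries correlated best with the control of their own number, so the numbers were not taken to pair the samples. With the replicate number as a block, 0 genes passed an adjusted p of 0.05 and 2546 (17.4%) an unadjusted p, and 2 members did so, Vegfa and Tek. Kdr was then at -0.22. The block with the GC trend removed gave 1427 genes (10.0%), 2 members, 5 higher and 1 lower pathway genes, Vegfc at 0.15 and Kdr at -0.16. The Angpt2 to Angpt1 difference over the 5 same-numbered pairs was -3.32 (exact sign-flip p = 0.125).

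Among the ratios, Kdr to Flt1 turned to 0.20 within R1, Tek to Tie1 to -0.51 both on the TPM scale and within R1, Vegfa to Flt1 to -0.24 within R2, and the Flt1 tail to last exon to 0.43 within R1. Without 1 library, Angpt2 to Angpt1 ran from -4.15 to -2.87 and the Flt1 tail to last exon from -0.87 to -0.23; over the whole tail the latter was -0.21. For the endothelial score, r without the 2 most extreme libraries was -0.73 for Vegfa, -0.22 for Vegfb, -0.11 for Vegfc, -0.17 for Pgf, 0.70 for Kdr, 0.20 for Angpt2, 0.51 for Tek and 0.38 for Tie1. Within R2 it was -0.54 for Vegfa, 0.22 for Kdr, -0.27 for Flt1, 0.65 for Angpt1, 0.04 for Angpt2, 0.34 for Tek and 0.14 for Tie1. With 1 library left out it ran from -0.18 to 0.46 for Vegfa, -0.05 to 0.53 for Vegfb, 0.71 to 0.89 for Kdr, 0.55 to 0.79 for Flt1, -0.48 to 0.38 for Angpt1, 0.63 to 0.86 for Tek and 0.64 to 0.81 for Tie1. It was not computed over the 5 libraries of R1.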
